A study of Mus musculus with 8 samples.

Results

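The genes of sterol and fatty acid synthesis were followed in the mouse retina at E15.5 (embryonic day) with and without deletion of the gene for the LIM homeodomain transcription factor Lhx2. The set holds 33 genes. They were chosen by name from the pathway and not by a threshold on their values, though with earlier results of these data known. They are 17 enzymes from mevalonate to cholesterol, 5 genes of the SREBP system and 2 sterol transport genes. The others are 2 enzymes that supply acetyl units, 2 enzymes that build fatty acids and 5 that desaturate or elongate them. All 33 were found among the 28432 genes of the count table by symbol, and all 33 passed the filter on low counts. The set does not hold every enzyme of the pathway.

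Each sample was RNA from both retinas of 1 embryo. The 4 control embryos were *Lhx2* flox/+; *Hes1* CreERT2/+ and the 4 conditional knockout (CKO) embryos were *Lhx2* flox/-; *Hes1* CreERT2/+. All 8 therefore carried 1 *Hes1* allele that encodes the tamoxifen-inducible Cre, all were exposed to tamoxifen, fed to the dam at E11.5 at 0.15 to 0.2 mg for each g she weighed, and the control retinas kept 1 *Lhx2* allele that Cre cannot remove. Cre acts in cells that express *Hes1*, chiefly progenitors, and the neurons they produce inherit the recombined allele, so each sample mixes progenitors and neurons. The dams also brought in a tdTomato reporter by which recombined embryos can be screened. The embryos came from 3 litters collected over 2 days, but the sources used here do not say which litter gave which sample.

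Total counts were 13143587 to 15063867 per control sample and 13955259 to 19099937 per CKO sample. Normalized counts are counts divided by a size factor per sample. Genotypes were compared by edgeR's quasi-likelihood method on the raw counts over 13891 genes, a gene was called at a Benjamini-Hochberg adjusted p below 0.001, and log2FC is CKO over control. *Lhx2* itself was counted over the whole gene, including exons outside the floxed part, so its log2FC of -0.27 (adjusted p = 0.0050) checks neither the deletion nor the labels. Retinal progenitor and ganglion cell markers were abundant. *Rpe65* and *Mlana* of the pigment epithelium and *Gfap*, *Aqp4* and *Sox10* of glia stayed under 20 reads in every sample. However, 4 other pigment epithelium markers and 4 other glia markers passed the filter on low counts, so neither tissue can be called absent. Control replicate 3 and CKO replicate 1 lay apart from the rest of their group on the second principal component (17.3% of variance), at -21.9 and 26.8, and the values without them are given after the gene groups.

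Cholesterol and fatty acids are both built from acetyl-CoA in the cytosol. The sterol branch runs through mevalonate, the isoprenoids, squalene and lanosterol, and the fatty acid branch runs through malonyl-CoA. Transcription of both is driven by the sterol regulatory element binding proteins (SREBPs), which sit in the endoplasmic reticulum membrane with their escort Scap and are held there by the Insig proteins when sterols are plentiful. When sterols run low the complex moves to the Golgi, the SREBP is cut, and its free end enters the nucleus. The embryonic central nervous system makes most of its own cholesterol, used for the membranes of dividing progenitors and of growing axons, and cholesterol is also attached to the Hedgehog ligands that retinal ganglion cells release.

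Levels were compared between genes as RPKM, that is reads scaled to exon length and library size. *Scd2*, the main stearoyl-CoA desaturase of the developing nervous system, had the highest level of the 33 genes in control retina, 347 ± 17.8 (SD, n = 4). *Hmgcs1*, the cytosolic synthase that makes HMG-CoA, followed at 257 ± 9.26, and *Acly*, which splits citrate to give cytosolic acetyl-CoA, at 120.3 ± 1.89. Fatty acid synthase (*Fasn*) was the fourth, at 71.1 ± 1.32. The next genes in the order, *Srebf2* at 65.8, *Idi1* at 63.1 and *Cyp51* at 59.4, lay close together, with SDs of 3.88, 3.59 and 3.16. *Srebf2* and *Idi1* differed by less than the SD of either, and *Idi1* and *Cyp51* by about the SD of *Idi1*. At the low end stood *Tm7sf2* at 4.92 and the lipid efflux pump *Abca1* at 0.894. The 3 highest genes were the same in the CKO, at 378 for *Scd2*, 338 for *Hmgcs1* and 154 for *Acly*.

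**Figure D1:**
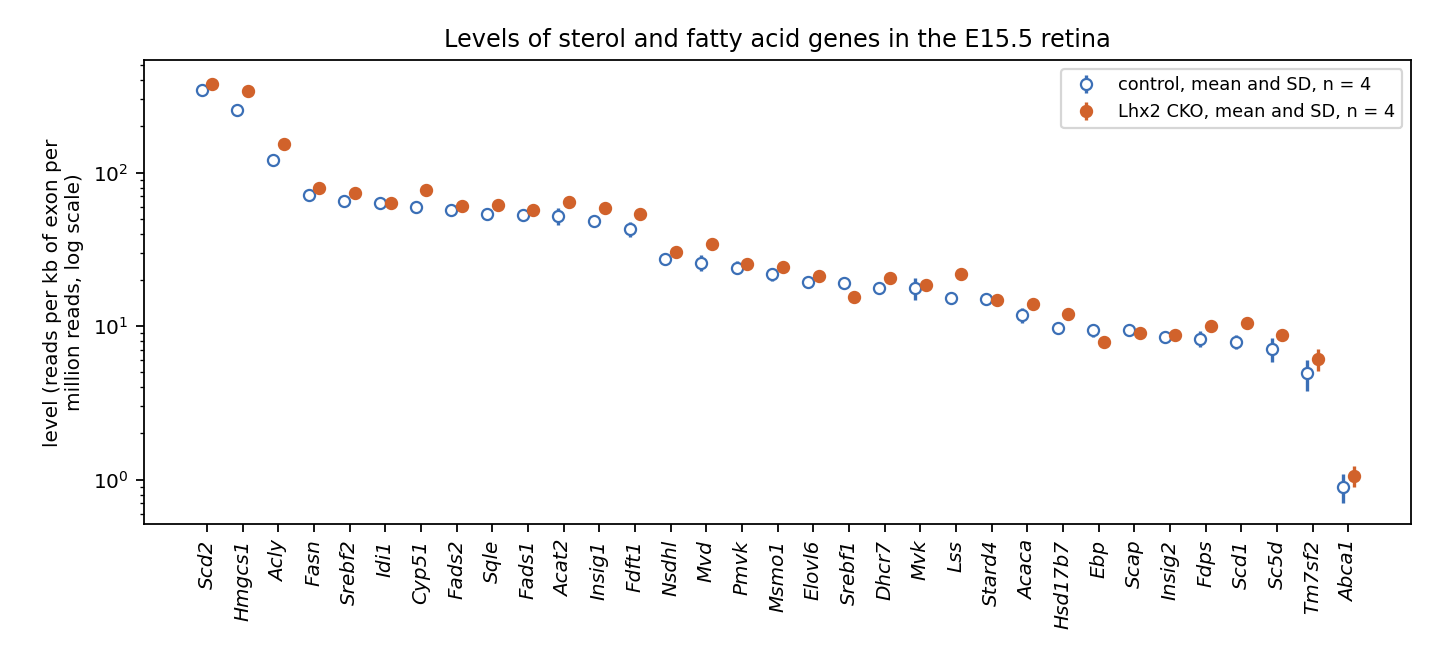
Level of each of the 33 genes in RPKM (log axis), as the mean with SD of 4 control (open) and 4 CKO (filled) samples, ordered by control level. Levels ran from 347 for *Scd2* to 0.894 for *Abca1* in control retina, and *Hmgcs1* and *Acly* were the next highest.

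Of the 33 genes, 4 rose in the CKO, 0 fell and 29 were not called. The 4 were *Lss*, *Hmgcs1*, *Cyp51* and *Acly*, with log2FC of 0.52, 0.39, 0.39 and 0.35, that is 1.44, 1.31, 1.31 and 1.28 times the control level. They make up 12.1% of the set, and 3.64% of all genes tested were called higher, 4.97% lower and 8.61% in either direction. DESeq2 called 9 of the 33 higher and 0 lower, against 8.34% and 8.87% of all genes tested, and limma voom 4 and 0, against 3.54% and 4.9%. At an unadjusted edgeR p below 0.05 the counts were 21 higher and 2 lower, against 21.3% and 22.3% of all genes tested. At an adjusted p below 0.05 edgeR put 15 genes higher (45.5%, against 15.9% of all genes tested) and 2 lower (6.06%, against 17.4%), the 2 being *Ebp* and *Srebf1*. The median log2FC of the 33 was 0.19, with a range of -0.30 to 0.52, and that of all genes tested was 0.00529. The log2FC was above 0 for 29 of the 33, against 50.8% of all genes tested.

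Read by sample, the CKO values lay wholly above the control values for 10 genes (30.3%, against 15.9% of all genes tested), wholly below for 2 (6.06%, against 17.9%) and overlapped them for 21. In either direction that is 12 of 33 genes, against 33.8% of all genes tested. The count of called genes depended on the samples used. With 1 sample left out at a time it ran from 1 to 7, and it was 11 when control replicate 3 and CKO replicate 1 were both left out, a fit that called 7.41% of all its genes higher and 7.87% lower. Without control replicate 3 it was 7, without control replicate 1 or control replicate 2 it was 2, and without CKO replicate 2 or CKO replicate 4 it was 1. *Lss* was called in each of these fits.

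**Figure D2:**
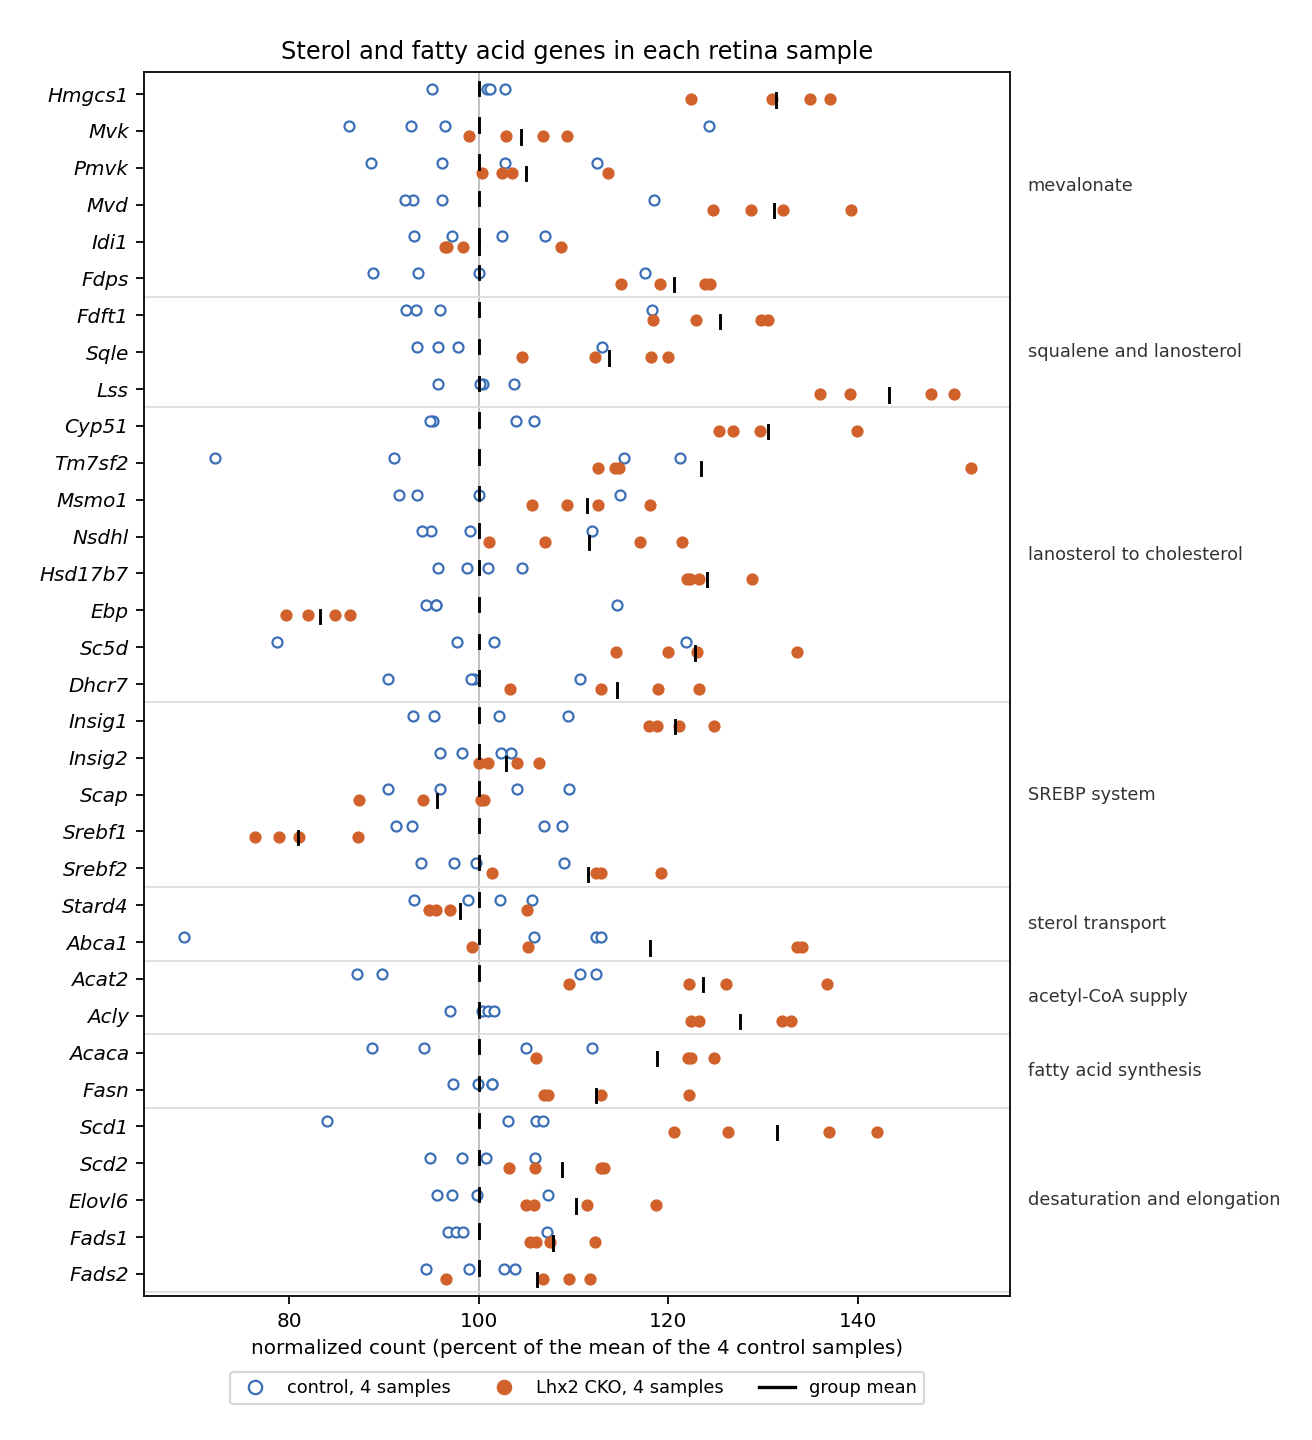
Normalized count of each gene in each sample as a percent of the mean of the 4 control samples, with control samples open, CKO samples filled and black bars for group means, in the order of the pathway. The 4 CKO samples lay above all 4 controls for 10 genes, among them *Hmgcs1*, *Lss*, *Cyp51* and *Acly*, and below them for *Ebp* and *Srebf1*.

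The mevalonate steps turn acetyl-CoA into isoprenoid units, and of their 6 genes 1 rose and 0 fell, against 3.64% and 4.97% of all genes tested. *Hmgcs1* (ENSMUSG00000093930, chr13:119690379-119708260, plus strand, GRCm38) encodes the enzyme that joins acetyl-CoA and acetoacetyl-CoA. It had 17106, 18484, 18137 and 18202 normalized counts in the controls (replicates 1 to 4, the order used throughout) and 22009.9, 24646, 23542 and 24259.9 in the CKO. All 4 CKO samples were above all 4 controls, and the means were 17982 ± 603 and 23614 ± 1163 (SD, n = 4). The edgeR log2FC was 0.39 (SE 0.0542, 95% interval 0.28 to 0.51, adjusted p = 2.6e-04), and the call was lost when CKO replicate 2, 3 or 4 was left out, at adjusted p values of up to 0.0017. Its exons overlap a gene on the opposite strand, *Gm48342*, over 12.1% of their length, and the libraries do not keep strand.

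*Mvd*, which decarboxylates mevalonate diphosphate to isopentenyl diphosphate, had 683, 705, 869 and 676 normalized counts in the controls and 914, 1021, 944 and 969 in the CKO. The groups did not overlap, with control replicate 3 well above the other controls. The edgeR log2FC was 0.40 (SE 0.0781, adjusted p = 0.0026), not called with all 8 samples and called without control replicate 3. DESeq2 called *Mvd* with all 8 samples (adjusted p = 3.1e-05). *Fdps* makes farnesyl diphosphate, the branch point between sterols, ubiquinone, dolichol and protein prenylation. Its means were 530.5 ± 66.5 and 639.9 ± 23.4 (SD, n = 4), with overlap (log2FC 0.28, SE 0.0831, adjusted p = 0.025, edgeR). Reads of *Fdps* share 26.7% of its exon length with *Gm43738* on the same strand, so its count is uncertain.

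The other 3 genes of this stretch had intervals that spanned 0. The mevalonate kinase gene *Mvk* had means of 724 ± 121 and 756 ± 32.6 (95% interval of the log2FC -0.14 to 0.28), and the phosphomevalonate kinase gene *Pmvk* an interval of -0.09 to 0.24. *Idi1*, whose enzyme interconverts the isoprene units, had 3133, 3269, 3599 and 3445 in the controls and 3243, 3655, 3249 and 3307 in the CKO. These values were interleaved, with a log2FC of 0.00305 and an interval of -0.12 to 0.12.

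The 3 genes from farnesyl diphosphate to lanosterol were all higher at an adjusted p below 0.05, with 1 called and a median log2FC of 0.33. Of all genes tested, 15.9% were higher at that looser cutoff and 3.64% were called higher, by edgeR. *Lss* (ENSMUSG00000033105, chr10:76531588-76557138, plus strand, GRCm38) encodes lanosterol synthase, which folds squalene epoxide into the ring system. It had 2395, 2596, 2516 and 2506 normalized counts in the controls and 3759.9, 3484, 3404 and 3698 in the CKO. The lowest CKO sample was above the highest control by more than the spread of either group, with means of 2504 ± 82.6 and 3586 ± 169 (SD, n = 4). This was the largest log2FC of the 33 genes, 0.52 (SE 0.0518, 95% interval 0.41 to 0.63, edgeR adjusted p = 2.9e-05).

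*Fdft1*, squalene synthase, catalyses the step that commits farnesyl diphosphate to sterols. It had 2579.6, 2649, 3266 and 2551 normalized counts in the controls and 3271, 3605, 3393 and 3586 in the CKO. The groups were separate only narrowly, with control replicate 3 just under the lowest CKO sample (log2FC 0.33, SE 0.0738, adjusted p = 0.0053, edgeR, not called). Without control replicate 3 it was called by edgeR, and DESeq2 called it with all 8 samples (adjusted p = 1.5e-04). *Fdft1* shares 18.3% of its exon length with *Ctsb* on the opposite strand. *Sqle*, squalene epoxidase, an oxygen-dependent control point of the branch, had means of 4570.4 ± 404 and 5200.2 ± 317 with overlap (log2FC 0.19, SE 0.0643, adjusted p = 0.042, edgeR, not called).

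A further 8 genes carry lanosterol to cholesterol, and of these 1 rose, 0 fell and 7 were not called. Of all genes tested, 3.64% rose and 4.97% fell. *Cyp51* (ENSMUSG00000001467, chr5:4081145-4104746, minus strand, GRCm38) encodes the cytochrome P450 that begins the removal of the extra methyl groups of lanosterol. Its normalized counts were 3802, 3788, 4226 and 4151 in the controls and 5064, 5586, 5006 and 5177 in the CKO. The groups were well separated, with means of 3992 ± 229.6 and 5208 ± 262 (SD, n = 4) and an edgeR log2FC of 0.39 (SE 0.0531, 95% interval 0.27 to 0.50, adjusted p = 2.6e-04). The call was lost without control replicate 1, control replicate 2, CKO replicate 2 or CKO replicate 4. *Hsd17b7*, a keto-reductase of the demethylation complex, had 786, 759, 719 and 742 in the controls and 968, 919, 917 and 926 in the CKO. The 4 CKO samples stood apart from the controls (log2FC 0.31, SE 0.0540, adjusted p = 0.0011, edgeR), just outside the threshold. DESeq2 called *Hsd17b7* (adjusted p = 1.2e-05).

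*Ebp*, the sterol isomerase, ran the other way. It had 316, 312, 379 and 316 normalized counts in the controls and 264, 286, 271 and 281 in the CKO. Every CKO sample was below every control, with means of 331 ± 32.1 and 275 ± 9.88 (SD, n = 4), but the difference was not called (log2FC -0.26, SE 0.0807, adjusted p = 0.027, edgeR). The gene is on the X chromosome, and by *Xist* reads 2 control embryos (replicates 1 and 4) and 1 CKO embryo (replicate 1) were female. With sex as a covariate the log2FC of *Ebp* was -0.28 (edgeR adjusted p = 0.021). Within the CKO, sex cannot be told apart from replicate 1, the sample that lay apart on the second principal component. *Nsdhl*, also X-linked and a dehydrogenase of the demethylation complex, had a log2FC of 0.16 (95% interval 0.00882 to 0.31, edgeR adjusted p = 0.097), and *Msmo1*, its methylsterol oxidase partner, 0.16 (0.00877 to 0.31).

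The 3 remaining late enzymes were higher on average without being called. *Dhcr7*, a last-step reductase whose human form is mutated in Smith-Lemli-Opitz syndrome, had means of 1579.5 ± 131 and 1810.1 ± 136 (log2FC 0.20, SE 0.0671, adjusted p = 0.041, edgeR). *Sc5d*, a sterol desaturase, had a log2FC of 0.30 with a wide interval of 0.05 to 0.54. The reductase *Tm7sf2* had 300.1, 380.1, 399.6 and 238 normalized counts in the controls and 500.5, 378, 371 and 377 in the CKO. Its spread came mostly from low control replicate 4 and high CKO replicate 1, its interval spanned 0 (-0.04 to 0.66), and it shares 12.1% of its exon length with *Vps51* on the same strand.

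**Figure D3:**
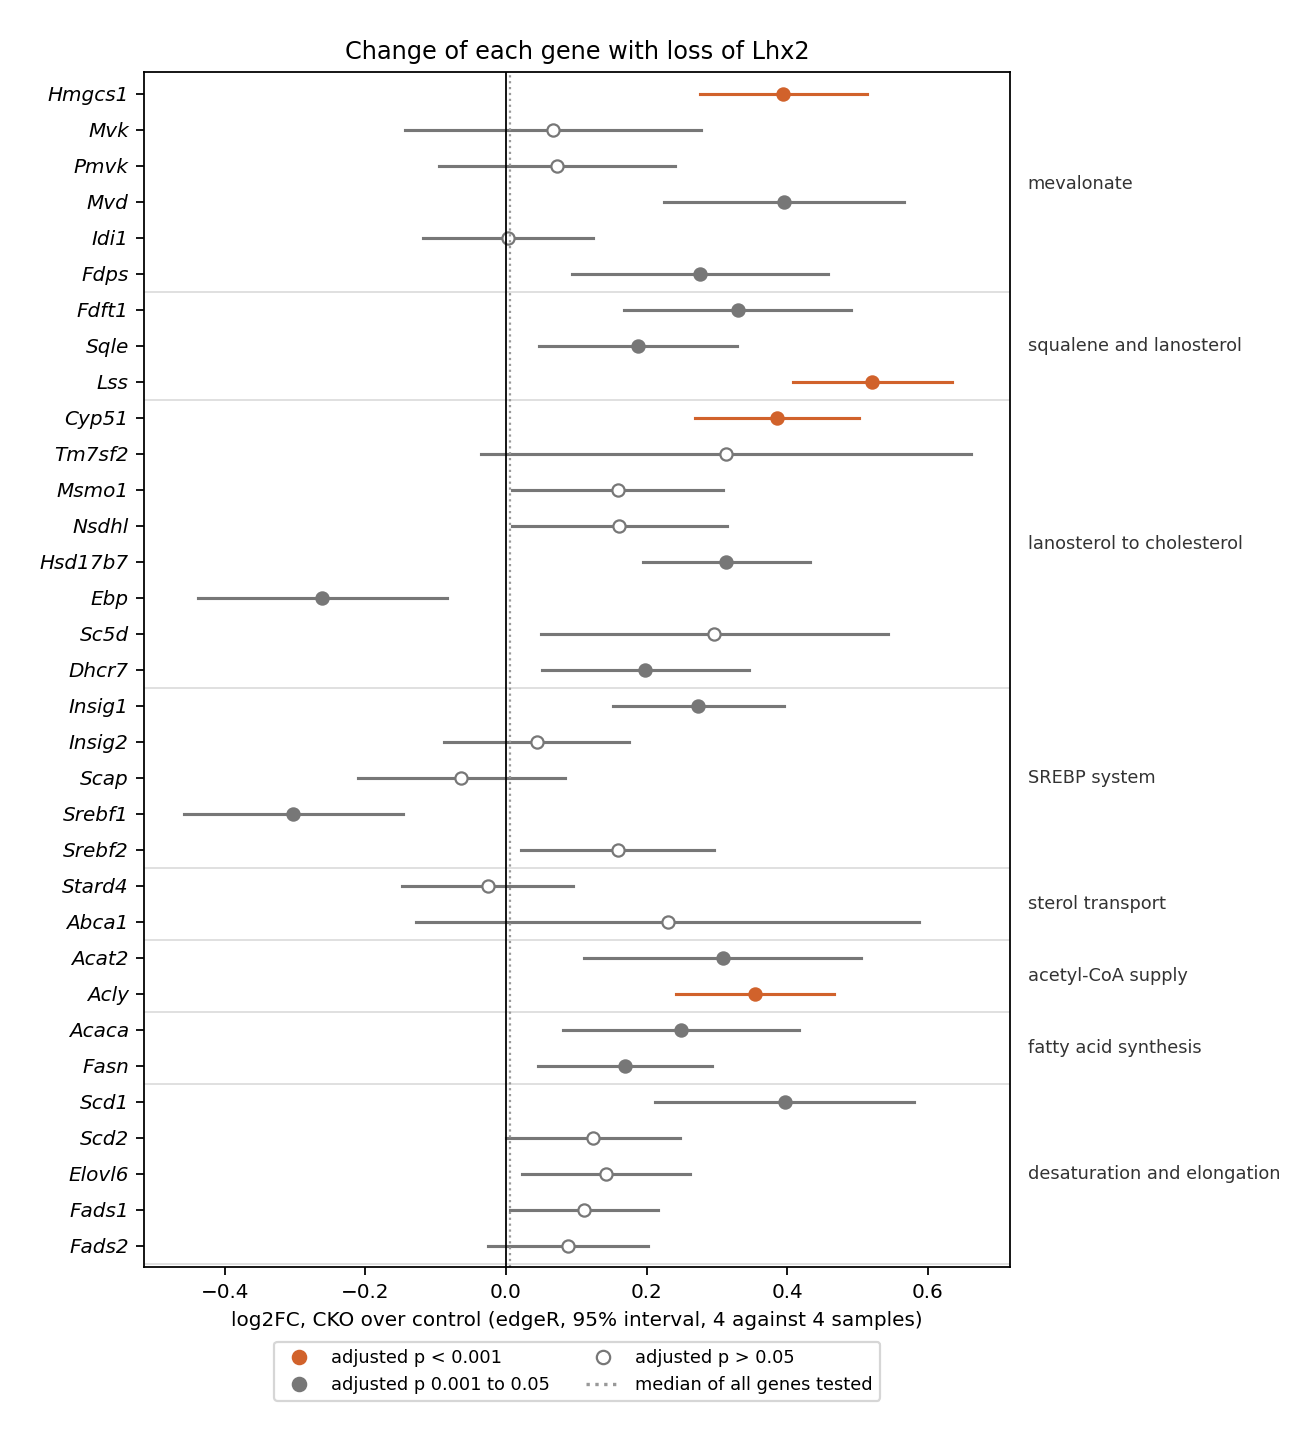
log2FC of CKO over control for each of the 33 genes with its 95% interval (edgeR, 4 against 4 samples), called genes in orange, genes with an adjusted p between 0.001 and 0.05 filled grey and others open, with the median of all genes tested as a dotted line. *Lss* had the highest value at 0.52, and *Srebf1* (-0.30) and *Ebp* (-0.26) were the 2 filled points below 0.

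The promoters of the 4 called genes are shown because SREBPs act at promoters, usually beside NF-Y and Sp1. Each runs 5′ to 3′ on the gene's strand from 250 bases before to 50 bases after the start of the gene in RefSeq (build GRCm38.p6), with matches to the 3 motifs TCACNCCAC (a sterol response element), CCAAT (bound by NF-Y) and GGGCGG (bound by Sp1), searched on both strands, in capitals.
*Hmgcs1* (chr13:119690101-119690400, plus strand): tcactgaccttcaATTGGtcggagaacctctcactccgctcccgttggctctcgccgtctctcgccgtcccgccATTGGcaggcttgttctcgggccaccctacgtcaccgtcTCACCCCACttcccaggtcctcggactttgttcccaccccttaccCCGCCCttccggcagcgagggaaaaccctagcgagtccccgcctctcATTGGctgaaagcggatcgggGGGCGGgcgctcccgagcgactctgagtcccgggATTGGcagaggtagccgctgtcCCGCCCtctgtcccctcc
*Lss* (chr10:76531355-76531654, plus strand): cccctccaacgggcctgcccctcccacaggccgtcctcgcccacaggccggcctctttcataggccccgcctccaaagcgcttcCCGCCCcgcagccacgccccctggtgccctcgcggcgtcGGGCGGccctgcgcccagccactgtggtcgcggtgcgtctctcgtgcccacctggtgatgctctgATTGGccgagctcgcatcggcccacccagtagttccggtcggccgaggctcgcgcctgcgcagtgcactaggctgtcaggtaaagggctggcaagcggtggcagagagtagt
*Cyp51* (chr5:4104648-4104947, minus strand): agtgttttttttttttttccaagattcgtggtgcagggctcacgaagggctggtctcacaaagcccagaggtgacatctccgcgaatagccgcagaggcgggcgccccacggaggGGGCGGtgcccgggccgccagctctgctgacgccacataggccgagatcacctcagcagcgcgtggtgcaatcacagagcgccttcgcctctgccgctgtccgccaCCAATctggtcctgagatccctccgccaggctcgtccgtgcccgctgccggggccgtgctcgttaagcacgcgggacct
*Acly* (chr11:100527951-100528250, minus strand): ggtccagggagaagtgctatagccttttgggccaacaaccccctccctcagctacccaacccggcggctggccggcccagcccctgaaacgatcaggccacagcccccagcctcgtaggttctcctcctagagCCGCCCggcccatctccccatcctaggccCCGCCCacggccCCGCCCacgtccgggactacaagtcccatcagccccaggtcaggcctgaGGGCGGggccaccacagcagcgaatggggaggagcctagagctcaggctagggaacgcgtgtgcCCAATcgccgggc

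Of the 33 genes, 26 have a promoter entry in the table used. The sterol response element was searched only as TCACNCCAC, so a promoter without a match may still hold another form of it. *Hmgcs1* was the only one of the 26 with a match to TCACNCCAC, which 1.41% of the 10164 tested genes with a promoter and 1.44% of all 27025 promoters hold. CCAAT was present in 20 of the 26 (76.9%), including all 4 called genes, against 43.2% of the tested genes and 41.1% of all promoters. GGGCGG was present in 22 (84.6%), again including all 4, against 70.1% and 38.2%. The E-box CACGTG, a palindrome, was found in 6 (23.1%) and in none of the 4 called genes, against 11.6% and 8.09%. No motif searched is contained in another, CACGTG reads the same on both strands, and a match is a string of letters and not a measured binding site. The genes with no entry were *Fdft1*, *Sqle*, *Fdps*, *Scd1*, *Scd2*, *Fads1* and *Stard4*.

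The 5 genes of the SREBP system were mixed in direction: 0 were called, 1 was higher and 1 lower at an adjusted p below 0.05, and the median log2FC was 0.04. At an unadjusted edgeR p below 0.05 the counts were 2 higher and 1 lower, against 21.3% and 22.3% of all genes tested. DESeq2 called 1 higher and 0 lower, against 8.34% and 8.87%, and voom called 0. *Srebf1* encodes the SREBP forms tied mainly to fatty acid genes. It had 1524, 1784, 1754 and 1497 normalized counts in the controls and 1329.8, 1253, 1295 and 1432 in the CKO. All 4 CKO samples were below all 4 controls, with means of 1639.7 ± 150.0 and 1328 ± 76.3 (SD, n = 4), and edgeR gave a log2FC of -0.30 (SE 0.0712, 95% interval -0.46 to -0.15, adjusted p = 0.0071), not called. With no filter on low counts its adjusted p was 7.2e-04.

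*Srebf2*, whose product drives mainly the sterol genes, had 7174, 6754, 7839 and 7006 normalized counts in the controls and 7297, 8122, 8087 and 8578 in the CKO. The groups overlapped (log2FC 0.16, SE 0.0626, adjusted p = 0.072, edgeR). *Insig1*, the retention protein whose own gene is an SREBP target, had 2123, 2329.6, 2496 and 2173 in the controls and 2689, 2709, 2762 and 2847 in the CKO. Here the groups were separate (log2FC 0.27, SE 0.0555, adjusted p = 0.003, edgeR), and the gene was called without control replicate 3 and by DESeq2. Its paralog *Insig2* had a log2FC of 0.04 (95% interval -0.09 to 0.17) and the escort gene *Scap* one of -0.06 (-0.21 to 0.08), with 13.2% of its exon length shared with a gene on the opposite strand.

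Neither sterol transport gene was called. *Stard4*, a cytosolic sterol carrier, had a log2FC of -0.03 with an interval of -0.15 to 0.09. *Abca1*, which loads cholesterol on lipoprotein particles and is induced when sterols accumulate, was the lowest of the 33 genes, with 149, 158, 97.0 and 159 normalized counts in the controls and 139.8, 148, 188 and 189 in the CKO. Control replicate 3 was far below the other controls and the groups overlapped (log2FC 0.23, SE 0.163, adjusted p = 0.31, edgeR).

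Acetyl supply and fatty acid synthesis held 9 genes, of which 1 rose, against 3.64% of all genes tested. *Acly* (ENSMUSG00000020917, chr11:100476353-100528000, minus strand, GRCm38) feeds both branches, and no annotated gene overlaps its exons. It had 9691, 9369, 9753 and 9811 normalized counts in the controls and 11900.3, 12744, 11817 and 12834 in the CKO. The 4 CKO samples lay far above a tight control group, at means of 9656 ± 197 and 12324 ± 539.7 (SD, n = 4), and the edgeR log2FC was 0.35 (SE 0.0512, 95% interval 0.24 to 0.47, adjusted p = 3.5e-04). The call was lost when any of control replicates 1, 2 or 4 or CKO replicates 2 or 4 was left out. *Acat2*, the thiolase that condenses acetyl-CoA for the sterol branch, had means of 2024 ± 271 and 2503 ± 228 with overlap (log2FC 0.31, SE 0.0901, adjusted p = 0.021, edgeR, not called).

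None of the 7 fatty acid enzyme genes rose or fell by edgeR at the cutoff of 0.001. At an unadjusted edgeR p below 0.05, 5 were higher and 0 lower, against 21.3% and 22.3% of all genes tested. DESeq2 called 1 higher (*Scd1*) and 0 lower, against 8.34% and 8.87%, and voom called 0. *Fasn* had 11525, 11833, 12006 and 12006 normalized counts in the controls and 12659.7, 13374, 12708 and 14471 in the CKO. The groups did not overlap although the shift was small (log2FC 0.17, SE 0.0566, adjusted p = 0.038, edgeR). *Acaca*, acetyl-CoA carboxylase, which makes malonyl-CoA, had means of 3061 ± 319 and 3637 ± 264 with overlap (log2FC 0.25, SE 0.0765, adjusted p = 0.027, edgeR).

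The desaturases *Scd1* and *Scd2* introduce the same bond into saturated acyl chains. *Scd1* had 494, 624, 628 and 607 normalized counts in the controls and 709, 806, 743 and 836 in the CKO, with no overlap and control replicate 1 the lowest (log2FC 0.40, SE 0.0840, adjusted p = 0.0039, edgeR, not called). *Scd2*, far more abundant, had 27346, 30524, 28310.1 and 29048 in the controls and 29728, 32522, 30530.1 and 32630.4 in the CKO. Its groups overlapped (log2FC 0.12, SE 0.0564, adjusted p = 0.11, edgeR). The elongase gene *Elovl6* and the polyunsaturated fatty acid desaturase genes *Fads1* and *Fads2* had log2FC of 0.14 (95% interval 0.02 to 0.26), 0.11 (0.00575 to 0.22) and 0.09 (-0.03 to 0.20).

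Summed by sample, the 17 sterol enzymes took 2775 to 3092 CPM (reads scaled to library size) in the controls and 3505 to 3748 in the CKO, a ratio of group means of 1.24 with no overlap. The 2 acetyl supply genes took 738 to 794 and 940 to 1026 (ratio 1.27), the 7 fatty acid enzymes 3337 to 3617 and 3690 to 4030 (ratio 1.10) and the 5 SREBP system genes 799 to 896 and 848 to 942 (ratio 1.08, with overlap). Such sums weigh each gene by its reads. The called genes *Hmgcs1* and *Acly* had the most reads of the sterol enzymes and of the acetyl supply genes. The 3 genes from farnesyl diphosphate to lanosterol and the 8 later ones had ratios of 1.25 and 1.20. These groups do not include *Hmgcs1*, but they hold the called genes *Lss* and *Cyp51*. Control replicate 3 was the highest control for 21 of the 33 genes, and CKO replicate 1 was the lowest CKO sample for 22.

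Left out together, these 2 samples changed the call of 7 genes, while the share of all genes called higher went from 3.64% to 7.41%. For a gene highest among controls in the first and lowest in the CKO in the second, leaving both out widens the difference. The added calls are therefore given as a description only. *Mvd* then had a log2FC of 0.50 (1.2e-05), *Fdft1* 0.44 (3.7e-06), *Sqle* 0.28 (2.0e-04), *Hsd17b7* 0.26 (9.997e-04), *Dhcr7* 0.29 (4.9e-04), *Insig1* 0.32 (1.4e-04) and *Scd1* 0.46 (9.1e-04), with the edgeR adjusted p in brackets, and all 7 were called higher beside the 4 genes above. The lower values of *Ebp* and *Srebf1* became -0.18 (0.079) and -0.28 (0.0079). Among genes with small or variable differences, *Mvk* went to 0.20 (0.015), *Pmvk* to 0.13 (0.16), *Nsdhl* to 0.26 (0.0017), *Fads2* to 0.14 (0.014) and *Srebf2* to 0.24 (0.0013). Without control replicate 3 alone *Mvk* had 0.19 (0.025) and *Abca1* 0.09 (0.60), and without CKO replicate 1 alone *Tm7sf2* had 0.19 (0.38), by edgeR.

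Marker genes of several cell types also moved with genotype. At the same cutoff, 3.64% of all genes tested rose and 4.97% fell. Retinal progenitor markers summed to 5866 to 6615 CPM in the controls and 3320 to 3781 in the CKO (7 of 10 fell and 1 rose), and cell cycle genes to 3273 to 3642 and 2216 to 2507 (11 of 12 fell). Ganglion cell markers summed to 3451 to 4113 and 4667 to 4942 (4 of 10 rose, 0 fell). Endothelial markers took 286 to 303 and 175 to 226 (2 of 5 tested fell), pigment epithelium markers 14.9 to 24.7 and 4.98 to 7.05 (1 of 4 tested fell, with *Rpe65* and *Mlana* too low to test), and red blood cell markers 24.5 to 157 and 38.8 to 126 (0 called). Lens markers took 1.53 to 4.04 and 3.31 to 6.21 (0 of 2 tested called). Mesenchyme markers took 13.4 to 19.3 and 17.9 to 37.7, although 1 of 3 tested fell and 0 rose. The 37.7 was CKO replicate 4, with the other CKO samples at 17.9 to 20.6. Macrophage markers took 43.1 to 52.7 and 37.0 to 48.5, and photoreceptor precursor markers 827 to 929 and 872 to 962. Glia markers took 279 to 293 and 273 to 312, and 0 were called in each of these lists. In bulk samples more or fewer cells of a type and more or less RNA per cell cannot be told apart, and the part of these shifts in the changes of the lipid genes was not tested.

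**Figure D4:**
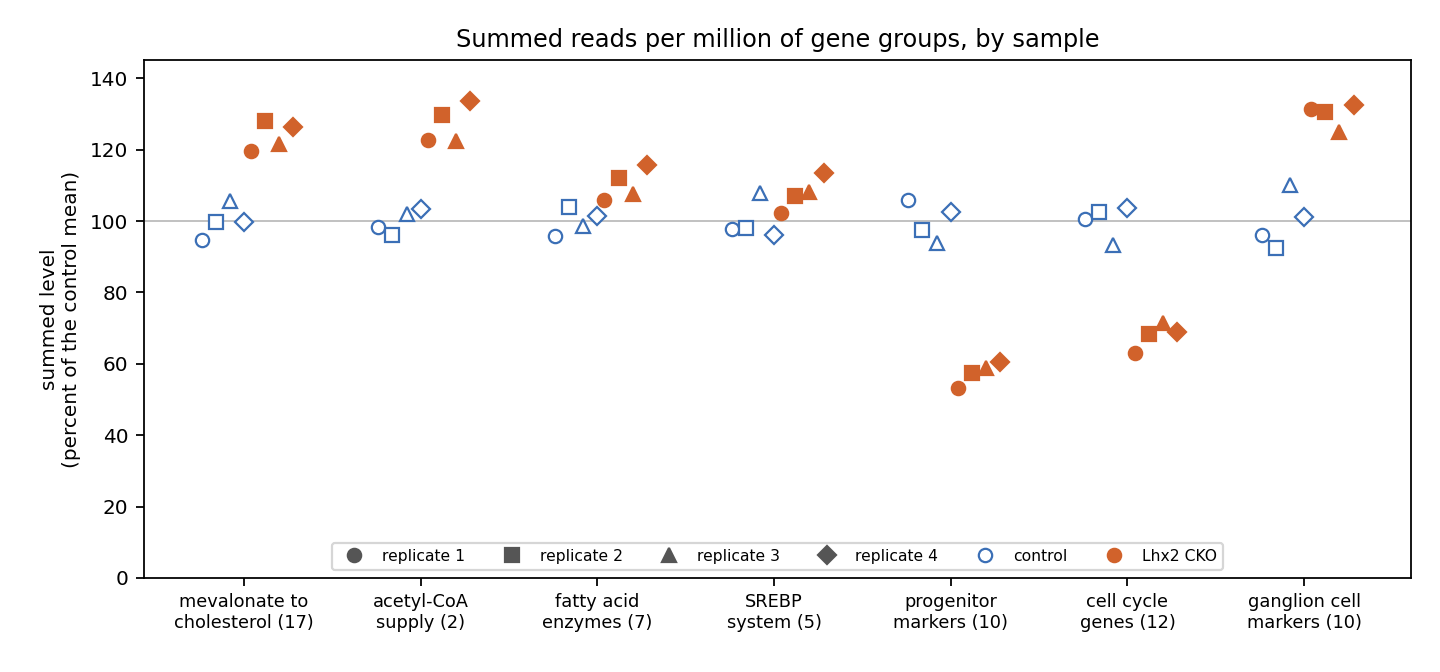
Summed CPM of 4 groups of lipid genes and 3 marker lists in each sample, as a percent of the control mean (number of genes in brackets, marker shapes for replicate numbers). The sterol enzymes, acetyl supply genes and fatty acid enzymes lay higher in all 4 CKO samples, as did ganglion cell markers. Progenitor markers and cell cycle genes lay lower, and the SREBP system genes overlapped.

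A wider list of 94 other lipid genes, written from general knowledge with earlier results of these data known, was read in the same fit. Of the 82 tested, 1 rose (1.22%, against 3.64% of all genes tested) and 3 fell (3.66%, against 4.97%). At an adjusted p below 0.05, 13 were higher and 13 lower (15.9% each, against 15.9% and 17.4%), and the median log2FC was -0.02. *Scarb1*, the cell surface receptor for high-density lipoprotein, had 845, 861, 1075 and 1052 normalized counts in the controls and 371, 463, 412 and 370.3 in the CKO. Its CKO samples held less than every control by a wide margin (log2FC -1.24, SE 0.0985, adjusted p = 5.9e-06, edgeR), and the call stood in all 8 fits that left out 1 sample. *Lbr*, the lamin B receptor, is a nuclear envelope protein that also performs the sterol reduction of *Tm7sf2*. It had 2029, 2021, 1897 and 2117 in the controls and 1294, 1487, 1374 and 1309 in the CKO, again with no overlap (log2FC -0.56, SE 0.0556, adjusted p = 2.9e-05, edgeR) and called in all 8 such fits.

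The other 2 called genes handle acyl chains and phospholipids. *Acsl3*, an acyl-CoA synthetase of lipid droplets, had means of 4105 ± 270.2 and 3038 ± 221 (SD, n = 4; log2FC -0.43, SE 0.0634, adjusted p = 3.8e-04, edgeR), and the call was lost without control replicate 1, 2 or 4 or CKO replicate 3 or 4. *Pcyt1b*, which makes CDP-choline for phosphatidylcholine, had 1022, 1068, 1048 and 1046 normalized counts in the controls and 1292, 1557, 1329 and 1489.7 in the CKO. It was the only gene of the wider list to rise (log2FC 0.44, SE 0.0612, adjusted p = 2.8e-04, edgeR), a call lost without control replicate 1 or 4 or CKO replicate 2 or 4. Of the others named by the rule for this list, the lipoprotein and reelin receptor gene *Lrp8* had a log2FC of 0.37 (adjusted p = 0.0015), the sterol transfer gene *Gramd1a* 0.45 (0.0087) and the protease gene *Mbtps1*, which makes the first cut in SREBPs, -0.23 (0.012), by edgeR and not called. *Por*, which passes electrons to Cyp51, had 0.07 (0.42), the citrate carrier gene *Slc25a1* 0.19 (0.043) and the sterol-sensing receptor gene *Nr1h2* 0.06 (0.59). The elongation genes *Tecr* and *Hsd17b12* had 0.18 and -0.05, the isoprenoid genes *Nus1* and *Fnta* -0.07 and -0.02, and the ubiquitin ligase gene *Rnf145* 0.03, all with an adjusted p of at least 0.135.

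**Figure D5:**
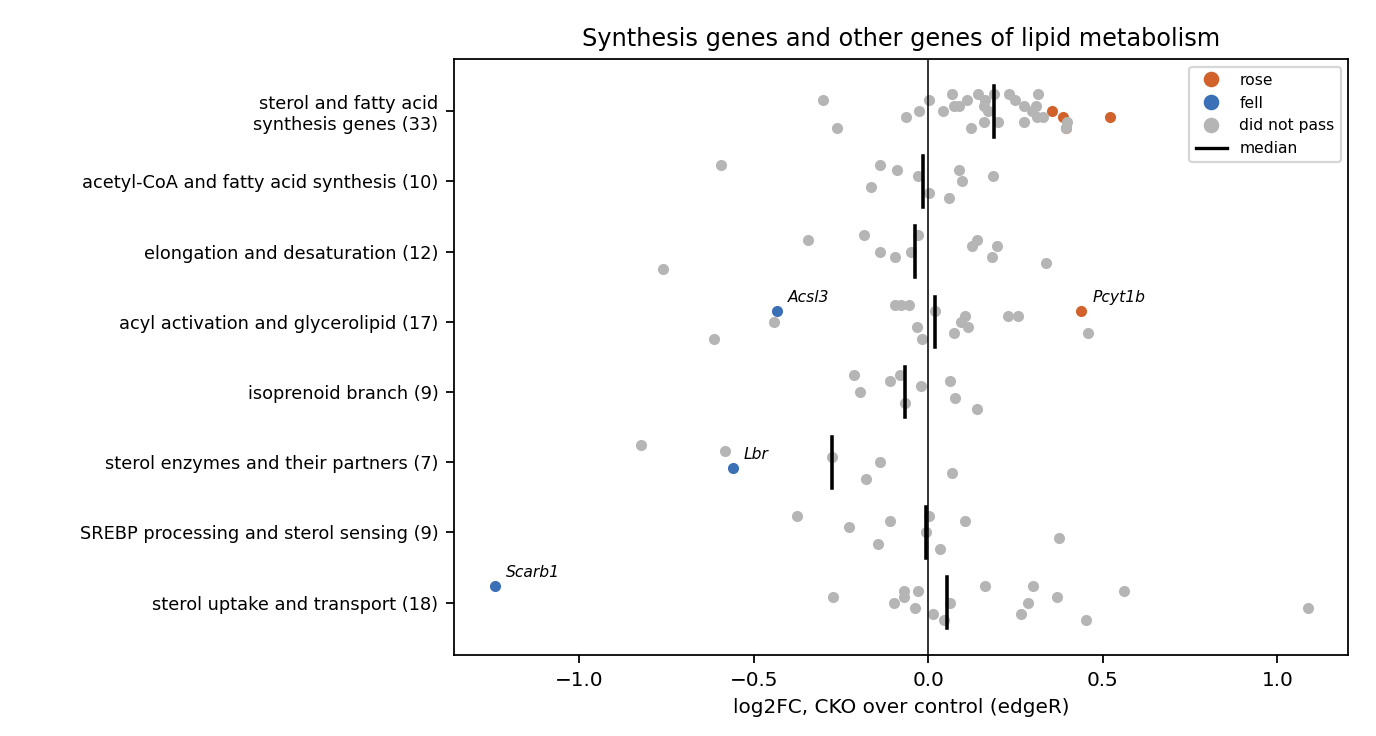
log2FC of CKO over control for the 33 genes of sterol and fatty acid synthesis and for 7 lists of other lipid genes (tested genes in brackets), each point a gene, with black bars for medians. The median was 0.19 for the 33 genes, and *Scarb1*, *Lbr* and *Acsl3* were the 3 called lower.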

How the data were processed

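The authors sequenced poly(A) RNA of whole retina from 8 embryos (50 cycle single-end reads, Hi-Seq 2000, TruSeq RNA kit V2, no strand kept), aligned it to mm10 with TopHat 2 counted reads per gene with HTSeq and deposited these raw counts. The submitters' processing notes also name Cufflinks. For these tools no version, strand setting or annotation release is stated in the sources used here. Counts were tested as deposited in R 4.3.3 with edgeR 4.0.16 (quasi-likelihood, TMM scaling, genotype as the only term), keeping genes that reached 20 normalized counts in 3 or more samples, with Benjamini-Hochberg adjustment over 13891 genes at 0.001, the cutoff of the study. The study used DESeq2, here an alternative (1.42.0) with limma voom (3.58.1), other scalings and filters, sex, a replicate block and each sample left out. The model was tested on simulated data. Intervals are 95%. Coordinates and exons are from GENCODE M21 (GRCm38), which held 28232 of the 28432 gene IDs. Levels per kb use exon union length and TMM library sizes.

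The 33 genes and the other lists were chosen with earlier results of these data known. All 33 were accounted for, and of the wider list the text names the called genes and, in lists with under 2, the highest 2 by mean count. In the wider list, 92 of 94 genes were matched. Replicates were separate embryos.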

Additional observations from a re-analysis of the deposited data

Results flagged for a closer look

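Of 96 groups of 4 samples over the 33 genes and the genes named from the wider list, 11 had 1 sample far from the other 3 of its group by Dixon's test at 95%, where chance alone marks about 1 in 20 groups. Control replicate 3 was that sample in 5 of them. It was high for *Mvd* (868.8 normalized counts, the other controls at 676 to 705), *Fdft1* (3266, others 2551 to 2649), *Ebp* (379, others 312 to 316) and *Fads1* (4142, others 3742 to 3801), and low for *Abca1* (97.0, others 149 to 159). CKO replicate 1 was high for *Tm7sf2* (500.5, others 371 to 378) and *Gramd1a* (4391, others 3049.9 to 3199), and low for *Acaca* (3245, others 3736 to 3821) and *Mbtps1* (2421, others 2776 to 2825). CKO replicate 2 was high for *Idi1* (3655, others 3243 to 3307), and control replicate 1 was low for *Scd1* (494, others 607 to 628). None of these 11 genes was called with all 8 samples by edgeR at the settings of the report. With all 8 samples, DESeq2 and edgeR with no filter both called *Mvd*, *Fdft1* and *Scd1* higher.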

How the results depend on the processing

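Of the 33 genes, 4 rose with the settings of the report. The count was 9 with DESeq2, 8 with no filter on low counts, 15 when the adjusted p cutoff was 0.05, 11 without control replicate 3 and CKO replicate 1 together (an alternative chosen after seeing the data) and 1 to 7 with 1 sample left out. The count that fell, 0, was 1 with no filter (*Srebf1*), 2 at 0.05 and 0 in every fit without 1 sample. In the wider list the count that rose, 1, was 6, 5, 13 and 3 under the first 4 of these settings and 0 to 1 with 1 sample left out, and the count that fell, 3, was 5 with DESeq2, 5 with no filter, 13 at 0.05 and 2 to 3. With the replicate number as a block, 1 of the 33 rose (*Lss*), 0 fell, and *Hmgcs1*, *Cyp51* and *Acly* had edgeR adjusted p of 0.0011, 0.0021 and 0.0023. Deviations of same-numbered samples had correlations of 0.129, -0.153, 0.0478 and -0.119. Only for replicate 1 was this above the highest correlation with a sample of another number. Whether equal numbers mark a shared litter or day is not stated in the sources used here, and these correlations cannot decide it. Over all genes tested, 1196 were called, against 2390 with DESeq2, 2055 with no filter, 676 with the block and 685 to 1556 with 1 sample left out.

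Of 816 gene values under the alternatives, 753 kept direction and side of the threshold, 28 came to pass it, 24 no longer passed and 11 changed sign, the last all in genes near 0. The log2FC of *Idi1* became -0.0240 with library totals and -0.0103 with sex as a covariate. With 1 sample, or control replicate 3 and CKO replicate 1, left out, it ran from -0.0333 to 0.0456 for *Idi1*, -0.105 to 0.0152 for *Scap*, -0.0572 to 0.00274 for *Stard4*, -0.0110 to 0.110 for *Nr1h2*, -0.0834 to 0.0288 for *Hsd17b12* and -0.0429 to 0.0259 for *Fnta*. The cause was not tested. With 4 samples a group, the 95% intervals of the 33 genes limit what could be seen, and those that span 0 do not show that a gene was unaltered.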

Other observations

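Ratios of paralogs, chosen after their values were seen and given as a description, separated the genotypes in 3 pairs. *Srebf2* over *Srebf1*, both in normalized counts, was 4.71, 3.79, 4.47 and 4.68 in the controls and 5.49, 6.48, 6.24 and 5.99 in the CKO, in replicate order, with means of 4.41 ± 0.430 and 6.05 ± 0.425 (SD, n = 4). *Insig1* over *Insig2* was 4.76 to 5.41 in the controls and 5.71 to 6.13 in the CKO. *Scd2* over *Scd1* was 45.1 to 55.3 in the controls and 39.0 to 41.9 in the CKO. These are ratios of reads, which depend on gene length, and only the difference between genotypes can be read from them.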
